A study of Mus musculus with 4 samples.

Results

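The TRP channels of somatosensation followed here are 9 genes, Trpa1, Trpv1, Trpv2, Trpm2, Trpm3, Trpm4, Trpm8, Trpc1, and Trpc5, taken by their symbols from the 31053 genes of the count matrices. TRP channels are cation channels in the membrane of sensory neurons that open to heat, cold, irritant chemicals, or signals inside the cell, and let sodium and mostly also calcium in, which depolarizes the nerve ending. TRPV1 opens to noxious heat, protons, and capsaicin, TRPA1 to electrophilic irritants such as mustard oil, and TRPM8 to cool temperatures and menthol. TRPM3 is a heat sensor that pregnenolone sulfate activates, and TRPM2 opens to ADP-ribose and oxidative stress. TRPM4 is a calcium-activated channel that passes sodium but no calcium, TRPV2 is a relative of TRPV1 that is activated by very strong heat in expression systems, and TRPC1 and TRPC5 are receptor-operated channel subunits, TRPC5 also being linked to cold sensing.

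The data are scRNA-seq of GFP+ cells sorted from L4-5 dorsal root ganglia (DRGs) at day 7 after sham surgery or chronic constriction injury (CCI), for which 3 loose nylon sutures were tied round both sciatic nerves. The 4 libraries were 2 sham libraries, Male-Sham and Female-Sham, and 2 injured libraries, Male-CCI and Female-CCI. Series of 4 values keep this order. All mice were heterozygous PirtEGFPf mice on a C57BL/6 background, 7 to 8 weeks old, and each library pooled 20 DRGs of 5 mice. In all 4 groups EGFPf replaces the Pirt coding sequence of 1 allele, and Pirt is itself a known modulator of TRPV1 and TRPM8, so no group has the wild-type Pirt dose. Sorting on this allele misses DRG neurons that do not express Pirt, most of which are large neurofilament-rich cells, and this limits what the NF classes stand for. Animals are not separated within a library, male and female littermates went to the same surgery, and litter and surgery therefore cannot be told apart. Reported p-values measure the spread between these libraries of pooled animals.

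The libraries held 4019 to 8035 cells and 195684124 to 237069156 unique molecular identifiers (UMIs) as deposited, and 2947 to 5548 cells each passed the filters. By their markers 15133 of these 15715 cells were neurons, 558 were SGC (satellite glial cells), and 24 were immune cells. Neurons had a median of 45172, 32490, 56457, and 43527 UMIs. The libraries shared 215 to 513 cell barcodes per pair, and 904 cells that passed the filters (330, 146, 395, and 33) carried a barcode that also occurs in another library. Only 17 barcodes passed the filters in more than 1 library. The tests were also run without the 904 cells. Over all deposited cells, those with a shared barcode had a median of 76897.5, 694, 80335.5, and 624.5 UMIs. The others had 34781, 28532, 47700, and 35796.5 UMIs. This alternative thus also takes away deep cells, mainly of the male libraries. Neurons were called Sprr1a+ when the normalized expression of Sprr1a, a gene induced by axon injury, was above 1 on the natural log scale. By this limit 42, 144, 1467, and 1789 neurons were Sprr1a+ and 3239, 5254, 1350, and 1848 were Sprr1a-. Marker genes gave the clusters their class names, which follow the study and are all to be read as "-like". They are non-peptidergic (NP1, NP2, NP3), peptidergic (PEP1, PEP2, PEP3/4, PEP5), and neurofilament (NF1, NF2) neurons, C-fiber low-threshold mechanoreceptors (cLTMR), and CCI-induced clusters (CCI-ind). SGC transcripts were present in all neuronal sums, with the 5 SGC markers at a summed 1275, 1590, 851.1, and 1048 counts normalized to library size (CPM, counts in 1e6).

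On GRCm38 (mm10) the genes lie on 7 chromosomes. Trpa1 spans chr1:14872648-14918862 (minus strand), Trpm8 chr1:88277661-88389293 (plus), Trpv1 chr11:73234292-73261242 (plus), and Trpv2 chr11:62574486-62600515 (plus). Trpm2 spans chr10:77907722-77970563 (minus), Trpm3 chr19:22139046-22995410 (plus), Trpm4 chr7:45302632-45333780 (minus), Trpc1 chr9:95705082-95750375 (minus), and Trpc5 chrX:144381671-144688180 (minus). Counted genes on the opposite strand overlap Trpm3 (Gm27151 and C330002G04Rik), Trpm8 (4930453O03Rik), and Trpc5 (Trpc5os), and reads in the shared bases can be assigned correctly only where the counting used strand.

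Since several members fell together in Sprr1a+ neurons, the 250 bases before the RefSeq start (GRCm38.p6) are shown for 3 that fell, Trpv1, Trpm2, and Trpm8, and for Trpc1, which did not. Each is written 5′ to 3′ on the strand of its gene, with letter matches in capitals. RefSeq windows were at hand for 7 of the 9 members.
Trpv1, chr11:73233899-73234148, plus strand: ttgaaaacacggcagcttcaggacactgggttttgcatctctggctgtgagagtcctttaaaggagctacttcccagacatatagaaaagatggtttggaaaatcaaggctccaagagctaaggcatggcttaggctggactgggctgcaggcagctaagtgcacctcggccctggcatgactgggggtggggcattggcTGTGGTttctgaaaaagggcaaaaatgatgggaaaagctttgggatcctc
Trpm2, chr10:77969873-77970122, minus strand: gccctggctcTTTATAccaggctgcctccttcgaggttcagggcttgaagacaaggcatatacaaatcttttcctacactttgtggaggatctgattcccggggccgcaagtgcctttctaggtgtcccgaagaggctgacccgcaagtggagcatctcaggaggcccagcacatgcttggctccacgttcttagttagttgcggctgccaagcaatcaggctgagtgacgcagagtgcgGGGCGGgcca
Trpm8, chr1:88306485-88306734, plus strand: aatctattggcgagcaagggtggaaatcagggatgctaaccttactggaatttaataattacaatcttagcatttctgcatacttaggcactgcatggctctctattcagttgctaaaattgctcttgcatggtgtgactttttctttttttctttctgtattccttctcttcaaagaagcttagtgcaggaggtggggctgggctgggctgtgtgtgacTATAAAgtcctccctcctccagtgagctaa
Trpc1, chr9:95750349-95750598, minus strand: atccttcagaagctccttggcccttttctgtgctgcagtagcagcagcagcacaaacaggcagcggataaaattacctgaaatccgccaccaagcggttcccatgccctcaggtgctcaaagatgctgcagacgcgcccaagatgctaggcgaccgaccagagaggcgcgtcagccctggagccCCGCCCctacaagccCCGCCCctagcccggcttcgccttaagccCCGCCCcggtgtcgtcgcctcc
Letters were searched on both strands for AP-1 (TGANTCA), CRE (TGACGTCA), RUNX (TGTGGT), SP1 (GGGCGG), and the TATA box (TATAAA). The Trpv1 window holds RUNX letters 50 bases before the start, and such letters occur in 14% of 32851 windows of the same length. The Trpm8 window holds a TATA box 30 bases before the start (12.4% of windows), and Trpm2 holds SP1 letters at 10 bases and TATA letters on the other strand at 240 bases. Trpc1 holds SP1 letters on the other strand at 66, 51, and 22 bases, and 32.7% of all windows hold SP1 letters. None of the 10 windows of the members holds the AP-1 letters (6.75% of all windows) or the CRE letters (1.55%). These are matches of letters in short windows and say nothing about binding.

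Under sham surgery the members differed in the subtypes in which they were highest. Levels are CPM of the UMIs summed over the neurons of a class, given as the mean ± SD of the 2 sham libraries, and because classes were made from the same cells they are a description with no test. Trpa1 was highest in NP2 neurons, at 69.9 ± 5.14 CPM, followed by PEP3/4 at 39.9 ± 12.1 and cLTMR at 22.2 ± 0.014 CPM. NP1 (16.7 CPM), PEP1 (13.0 CPM), and PEP2 (11.4 CPM) came next, each above the following class in both libraries except that PEP2 and NP3 (10.6 CPM) overlapped. NF2, PEP5, and NF1 were lowest, at 2.82, 2.56, and 1.23 CPM. PEP5 overlapped the other two, and NF2 lay above NF1 in both libraries.

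Trpv1 was highest in PEP2 neurons at 432.3 ± 2.69 CPM, then PEP1 at 270.5 ± 10.3, PEP3/4 at 163 ± 13.9, NP1 at 142.6 ± 11.8, and NP3 at 114 ± 0.071 CPM. Each of these classes lay above the following one in both sham libraries. Trpv1 was at 41.8 ± 13.2 CPM in PEP5 and at or below 9.56 CPM in NF2, NP2, NF1, and cLTMR, which overlapped in part. Trpa1 and Trpv1 thus had opposite positions in NP2 neurons, the highest class for Trpa1 (69.9 CPM) and among the lowest for Trpv1 (7.07 ± 2.53 CPM). A small unnamed neuronal cluster of 263 cells, led by Rxfp1, Calb1, and Fcer1g, had more Trpv1 than any named class, with 1423, 1556, 1499, and 1308 CPM in the 4 libraries. Under sham it also held 62.9 and 44.1 CPM of Trpm2, above every named class but NP1, and 35.8 and 36.7 CPM of Trpc1, above every named class. The orders given here are over the 10 named classes.

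The TRPM genes also differed in their highest class. Trpm8 was at 100.5 ± 19.8 CPM in PEP5, 3.12 ± 1.03 in NF2, 1.64 ± 0.0071 in PEP3/4, and at or below 1.12 CPM in all other named classes, with 0 UMIs in NF1. PEP5 was named from markers other than Trpm8 itself. Most neuronal markers came, however, from the study's own markers of the same cells, in which PEP5 is the Trpm8+ class. Trpm8 was also among the genes used to integrate the cells, so the naming was not independent of it. Trpm2 was highest in NP1 (67.9 ± 13.8 CPM), then PEP5 (23.7 ± 0.658) and PEP3/4 (18.2 ± 0.417), and lowest in NP2 (0.709 ± 0.039 CPM). Trpm3 was highest in PEP2 (32.6 ± 2.38 CPM) and PEP3/4 (30.4 ± 3.88), which overlapped, and these stood above PEP5 (17.4 ± 3.66) in both libraries. It was at 1.40 ± 0.223 CPM in NF1 and 1.36 ± 0.029 in cLTMR. Trpm4 was more even, from 38.6 ± 0.997 CPM in NP3 over 31.7 ± 0.41 in NP2 and 24.96 ± 0.976 in PEP1 to 8.15 ± 1.24 in NF1.

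Trpv2 was highest in PEP5 (64.7 ± 2.30 CPM), NP2 (56.6 ± 3.88), and NP1 (46.3 ± 2.46), and lowest in NF2 (18.3 ± 1.42). NP1, cLTMR, PEP2, and PEP3/4 overlapped with their neighbours in the order, except that PEP3/4 lay above NF1. Trpc1 varied least, from 33.0 ± 1.30 CPM in PEP2, overlapping NP3 (32.3 ± 2.08) and NP1 (31.9 ± 0.778), to 18.8 ± 0.53 in cLTMR, and its order of classes was not stable, since other classes led when cells with shared barcodes or Female-Sham were left out. Trpc5 was near the limit of detection, with 26, 30, 25, and 43 UMIs over all neurons of the 4 libraries. Among the named classes its UMIs under sham lay in cLTMR (0.579 ± 0.314 CPM), NF1 (0.387 ± 0.0011), and NP2 (0.293 ± 0.174), with 0 UMIs in the other 7. NF1 led at 0.590 CPM when cells with shared barcodes were left out, and NP2 at 0.416 CPM without Female-Sham.

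**Figure D1:**
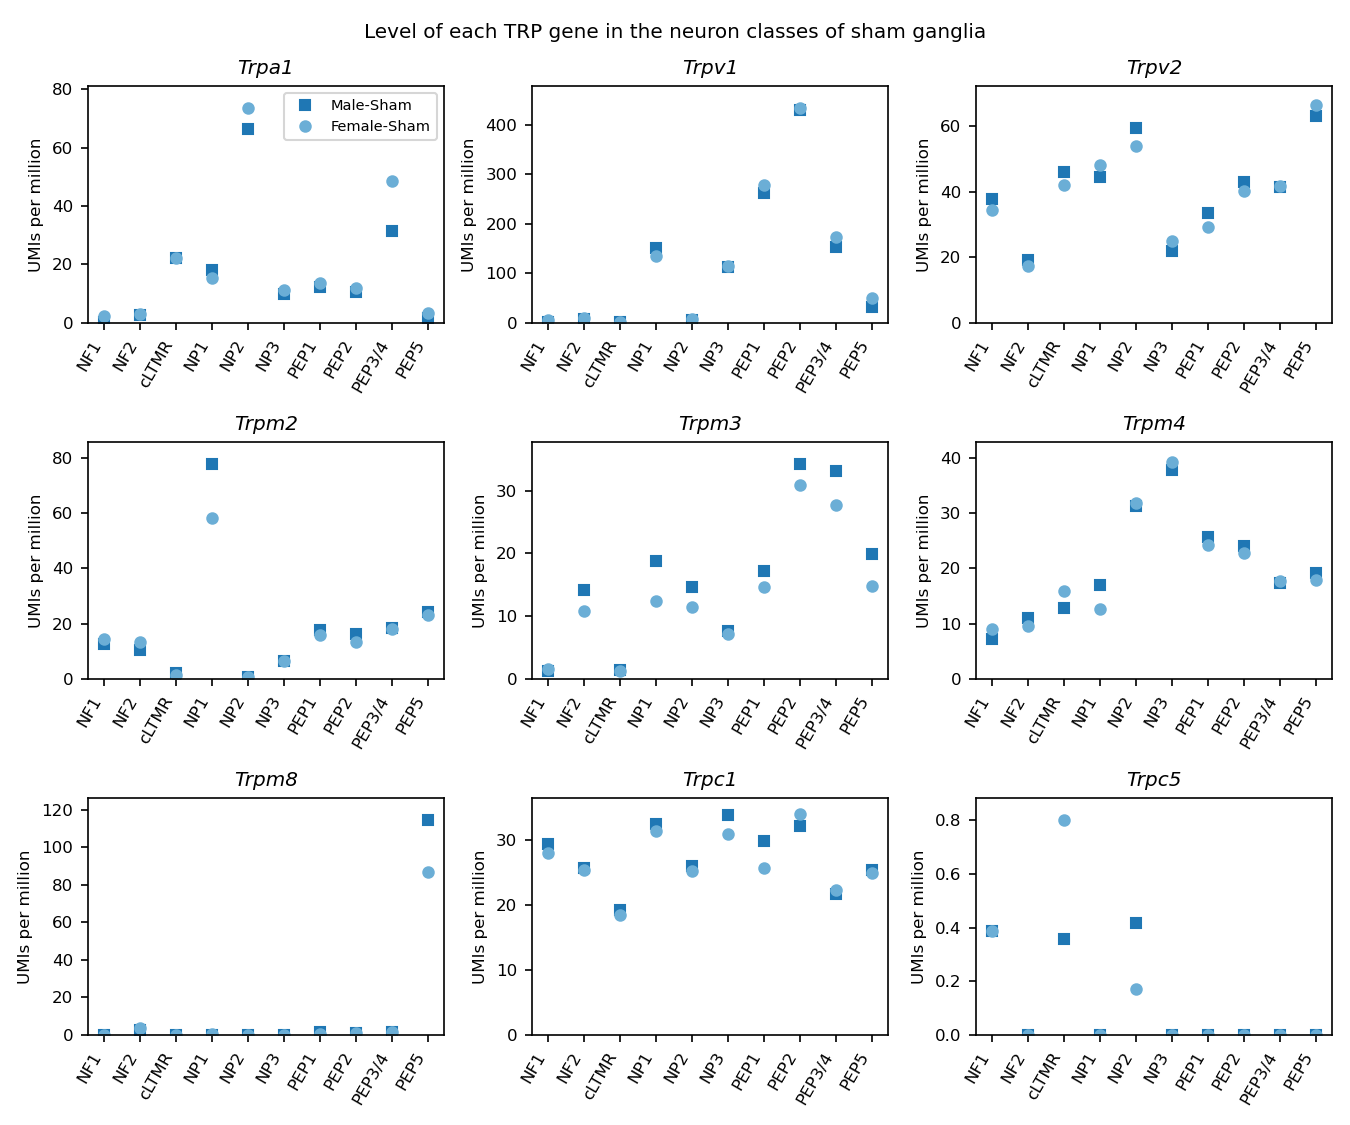
CPM of the 9 TRP genes in 10 neuron classes of the Male-Sham and Female-Sham libraries, a panel per gene and a point per library. Trpa1 peaks in NP2, Trpv1 in PEP2, Trpm2 in NP1, Trpm4 in NP3, and Trpm8 in PEP5, while Trpc1 stays between 18.5 and 33.9 CPM in all classes.

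The genes with the class profile most like each member were taken by Pearson's r of log2(CPM + 1) over 20 points, 10 classes in 2 sham libraries, among 10073 genes. The points share libraries and clusters, and the r values are descriptions. For Trpv1 they included Stac (0.952) and Gfra3 (0.946), the receptor of artemin. For Trpm8 they were Hjurp (0.948), Cpxm2 (0.941), and Kcnk9 (0.939), a potassium channel that is also among the markers used to name PEP5. The Hjurp gene begins next to the start of the Trpm8 span given above, on the other strand. The RefSeq window printed for Trpm8 lies inside that span and not beside Hjurp. For Trpm3 they were Ralgps2 (0.951), Zbtb20 (0.94), and Ngb (0.934), for Trpm2 Cnbp (0.949), Maged1 (0.924), and Bcar1 (0.923), and for Trpm4 Gtf3a (0.934), Thra (0.905), and Tro (0.898). For Trpa1 they were Shkbp1 (0.905), Zmat5 (0.904), and Fam173b (0.901), for Trpv2 Tbc1d17 (0.872), Ptdss2 (0.851), and the transcription factor Runx1 (0.846), and for Trpc1 Cntnap4 (0.845), Limk2 (0.808), and Fam13c (0.808). The 3 genes found for Trpc5, Gm11549, Psmc1, and Rpa1 (0.921, 0.905, and 0.905), rest on a mean level of 0.126 CPM.

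Over all neurons, 3 of the 9 members fell after CCI and none rose. A gene was called when edgeR's quasi-likelihood test gave an adjusted p (Benjamini-Hochberg over all genes tested) below 0.05 and an absolute log2 fold change above 0.5. Of 17233 genes tested in this comparison 27.8% were called, 12.7% as lower. Because injured and uninjured neurons and all classes are summed, fewer cells of a type and less RNA per cell cannot be told apart in these sums. Trpv1 was at 127.5, 143.3, 85.6, and 91.8 CPM. Both CCI libraries lay below both sham libraries, and the fitted log2 change was -0.55 (SE 0.073, adjusted p = 0.00092 in edgeR's quasi-likelihood test, n = 2 libraries per group). Without Female-Sham it was -0.47 and under the fold limit. Trpm2 was at 13.3, 12.1, 7.89, and 8.05 CPM and fell by 0.62 on the log2 scale (SE 0.066, adjusted p = 0.00036 in the same test). Trpm8, at 6.93, 6.07, 4.30, and 4.43 CPM, fell by 0.52 (SE 0.085, adjusted p = 0.0023), but was under the fold limit at -0.48 with doublets kept and at -0.43 without Male-Sham. Trpm4 was lower in both CCI libraries without reaching the fold limit, at 21.8, 21.7, 15.4, and 15.1 CPM (log2 change -0.46, SE 0.054, adjusted p = 0.00054), and reached it at -0.51 when cells with shared barcodes were left out.

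The remaining 5 members did not pass the test over all neurons. Trpa1 was at 24.8, 28.5, 20.6, and 32.6 CPM, with the CCI libraries on either side of the sham libraries (log2 change 0.052, SE 0.26, adjusted p = 0.88). Trpv2 was at 43.3, 41.0, 40.2, and 38.2 CPM, and Trpc1 at 26.5, 25.01, 26.4, and 25.2 CPM. Their log2 changes were -0.049 (SE 0.046) and 0.060 (SE 0.054), and the groups overlapped for Trpc1. Trpm3 was at 16.1, 14.1, 12.3, and 13.5 CPM (log2 change -0.17, SE 0.081, adjusted p = 0.11), and Trpc5 at 0.160, 0.158, 0.154, and 0.269 CPM (0.46, SE 0.33, adjusted p = 0.27).

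**Figure D2:**
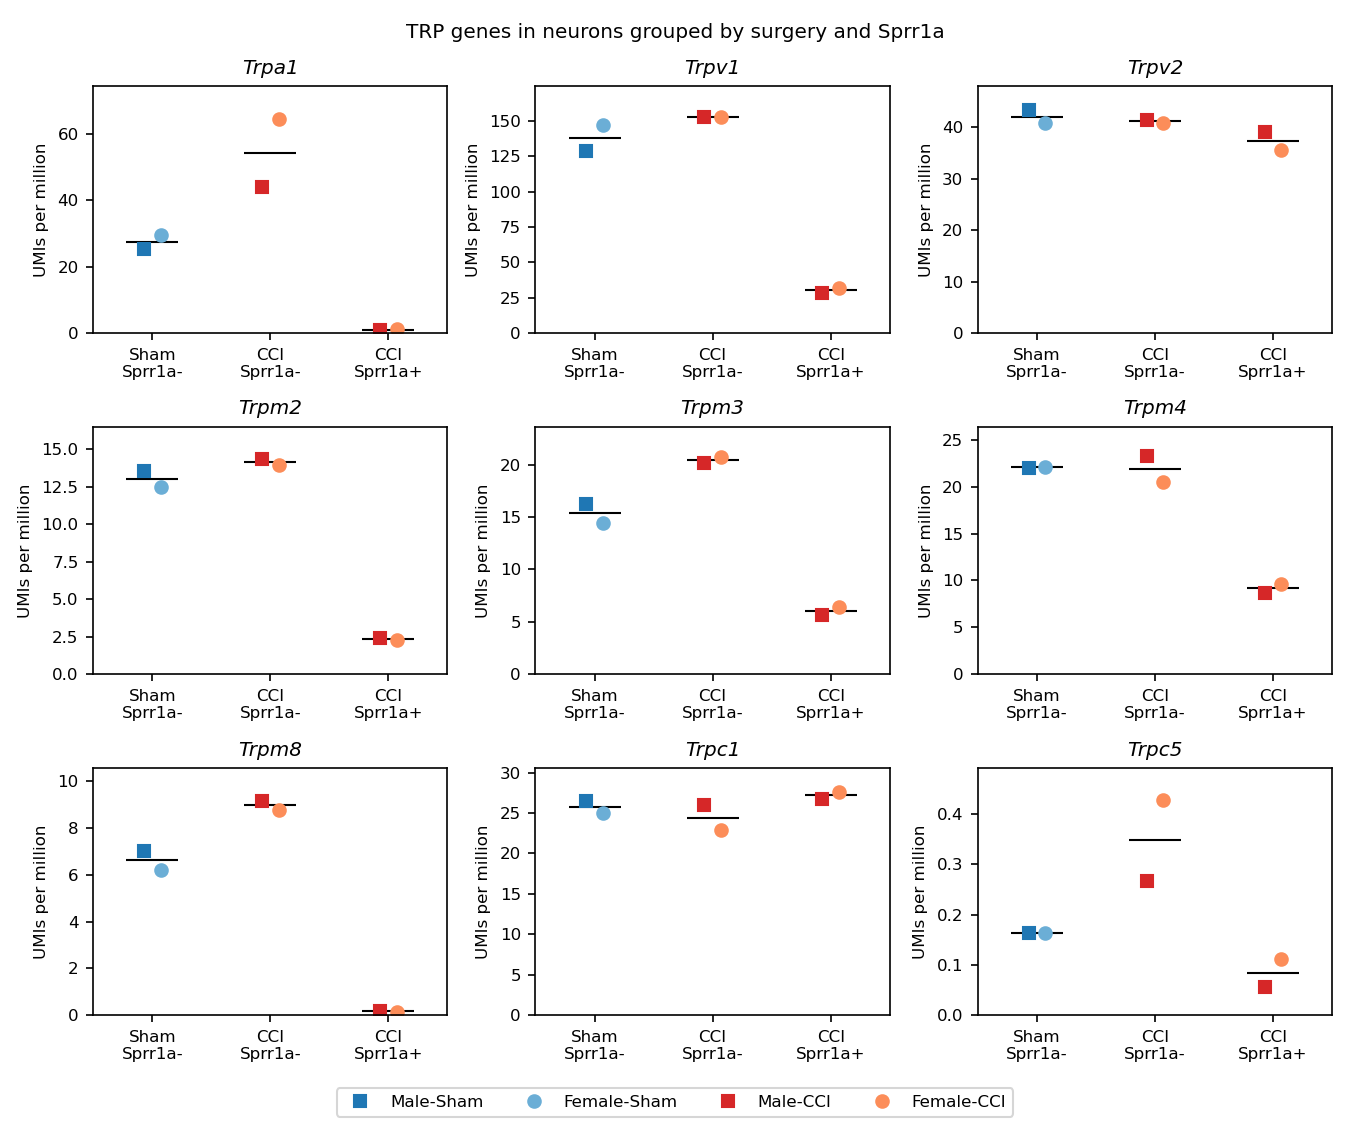
CPM of the 9 TRP genes per library in Sprr1a- sham neurons, Sprr1a- CCI neurons, and Sprr1a+ CCI neurons, with a bar at the mean of the 2 libraries. Trpa1 lies at 25.2 and 29.4 CPM in Sprr1a- sham neurons, 44.0 and 64.4 in Sprr1a- CCI neurons, and 0.772 and 1.33 in Sprr1a+ CCI neurons, while Trpv2 and Trpc1 stay at like levels in all 3.

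Sprr1a+ CCI neurons were compared with Sprr1a- sham neurons to ask what injured neurons express, and 6 of the 9 members were lower in them, with none higher. Of 16879 genes tested 49.8% were called in this comparison, 26.4% as lower. Trpm8 was at 7.04 and 6.21 CPM in Sprr1a- sham neurons and at 0.170 and 0.149 CPM, from 15 and 12 UMIs, in the Sprr1a+ neurons of Male-CCI and Female-CCI. This was a log2 change of -5.21 (SE 0.16, adjusted p = 9.0e-08 in edgeR's quasi-likelihood test). Trpa1 was at 25.2 and 29.4 CPM in Sprr1a- sham neurons and at 0.772 and 1.33 CPM, from 68 and 107 UMIs, in Sprr1a+ CCI neurons (log2 change -4.56, SE 0.23, adjusted p = 2.0e-05). The level of Trpa1 in the Sprr1a+ neurons of the sham libraries, 42 and 144 cells, was likewise low, at 2.78 and 0.499 CPM from 7 and 3 UMIs.

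Trpm2 fell from 13.5 and 12.5 CPM to 2.39 and 2.26 CPM (log2 change -2.33, SE 0.082, adjusted p = 1.6e-07). Trpv1 fell from 129 and 147.4 CPM to 28.7 and 31.8 CPM, a change of -2.04 (SE 0.085, adjusted p = 8.2e-07). In folds Trpv1 was 4.13-fold lower, Trpm8 37.1-fold, and Trpa1 23.6-fold. Trpm3 fell from 16.3 and 14.5 to 5.60 and 6.45 CPM (-1.20, SE 0.092) and Trpm4 from 22.1 and 22.1 to 8.69 and 9.65 CPM (-1.12, SE 0.074), with adjusted p = 1.1e-05 and 4.3e-06. In all 6 genes both CCI libraries lay below both sham libraries.

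Trpv2 and Trpc1 were not called. Trpv2 was at 43.3 and 40.8 CPM in Sprr1a- sham and 39.1 and 35.6 CPM in Sprr1a+ CCI neurons, with a fitted log2 change of -0.022 (adjusted p = 0.75). Trpc1 was at 26.5 and 25.1 against 26.8 and 27.6 CPM, a log2 change of 0.23 (SE 0.053, adjusted p = 0.0054) that was under the fold limit. In the Sprr1a+ comparisons the fitted changes sit above the CPM values, because the median gene is at -0.17 on the log2 scale by CPM and at -0.0099 after TMM normalization. Trpc5 had 5 and 9 UMIs in Sprr1a+ CCI neurons (log2 change -0.82, SE 0.42, adjusted p = 0.11).

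The sizes of these falls depend on the limit set for Sprr1a. When any Sprr1a UMI made a neuron positive, 2348 and 2912 of the CCI neurons were positive, and 469 and 725 were left as negative. Trpa1 then was no longer called (log2 change -0.18, adjusted p = 0.59), Trpm3 fell below the fold limit (-0.40), and Trpm8, Trpm2, and Trpv1 stayed called with -1.19, -0.90, and -0.83. Sprr1a+ neurons by the main limit came mostly from CCI-ind clusters, with 1084 of 1467 and 1381 of 1789 cells, so that over all neurons the comparison also sets unlike mixtures of classes side by side.

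Within the CCI libraries, where Sprr1a+ and Sprr1a- neurons come from the same animals, 7 members were lower in Sprr1a+ neurons and none was higher, in a comparison in which 45.6% of 16241 genes were called and 24.7% as lower. It shares its Sprr1a+ sums with the comparison above. The changes were -5.62 (SE 0.16) for Trpm8, -5.52 (SE 0.071) for Trpa1, -2.43 for Trpm2, -2.17 for Trpv1, -1.86 for Trpc5 (adjusted p = 0.0016 in edgeR's quasi-likelihood test, 0.11 in DESeq2, which did not call it, and a change of 0.034 with any Sprr1a UMI as the limit), -1.59 for Trpm3, and -1.08 for Trpm4. Trpc1 was 0.33 higher (adjusted p = 0.00084), under the fold limit, and Trpv2 differed by 0.032 (adjusted p = 0.50).

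The same contrast can be read as the share of a gene's UMIs that came from Sprr1a+ neurons, which gave 54.1% and 50.4% of all UMIs of CCI neurons in Male-CCI and Female-CCI. For Trpa1 it was 2.03% (95% CI 1.58 to 2.56) and 2.05% (1.69 to 2.48), and for Trpm8 2.15% (1.21 to 3.52) and 1.69% (0.878 to 2.94). The intervals are exact binomial (Clopper-Pearson) and cover counting error only. For Trpv1 the share was 18.1% and 17.5%, for Trpm2 16.4% and 14.1%, for Trpm3 24.7% and 24.1%, for Trpm4 30.6% and 32.3%, and for Trpc5 20% and 20.9%. The shares of Trpv2, 52.6% and 47.0%, and of Trpc1, 54.9% and 55.1%, were close to the share of all UMIs. The summed SGC markers were lower in Sprr1a+ than in Sprr1a- CCI neurons, at 649 against 1089 CPM in Male-CCI and 950 against 1147 CPM in Female-CCI, and their part in these results was not tested.

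**Figure D3:**
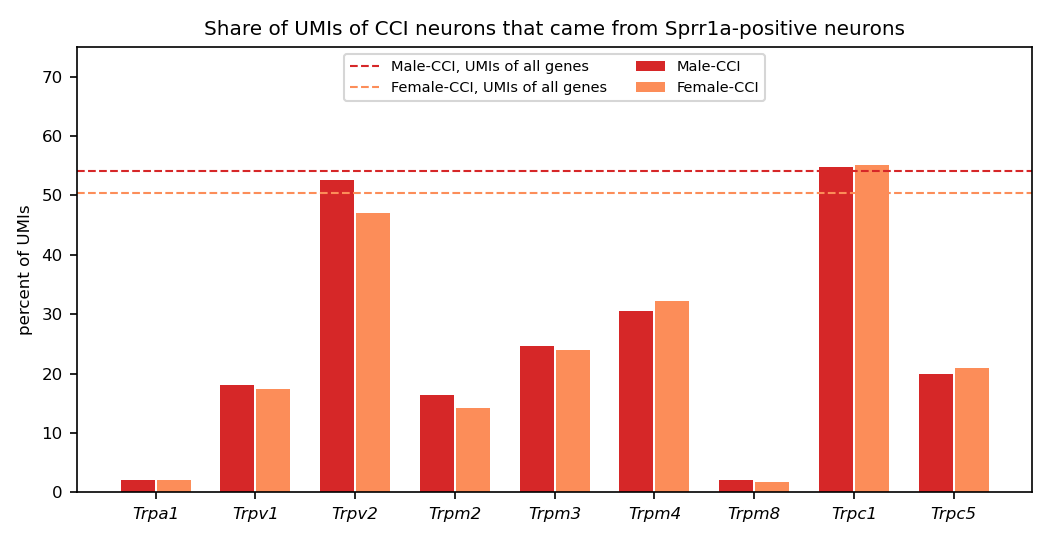
Percent of the UMIs of each TRP gene in CCI neurons that came from Sprr1a+ neurons, a bar per CCI library, with dashed lines at the share of all genes (54.1% and 50.4%). Trpa1 and Trpm8 lie near 2%, Trpv1 and Trpm2 at 14.1% to 18.1%, and Trpv2 and Trpc1 at 47.0% to 55.1%, near the lines.

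In 4 classes both CCI libraries had at least 10 Sprr1a+ neurons and both sham libraries at least 10 Sprr1a- neurons. CCI-ind was not among them, with 6 and 7 Sprr1a- neurons under sham. In these classes 20 of 29 tests of members were called, 15 as lower and 5 as higher, where 44.3% of all gene and class pairs tested were called, 22.7% as lower and 21.6% as higher. Without cells with shared barcodes 13 were called. By class 45.5% of all genes tested were called in NF1, 43.6% in NF2, 41.6% in NP1, and 46.4% in PEP5, against 4 of 6, 6 of 8, 5 of 7, and 5 of 8 members. In NP1 neurons, which are itch neurons marked by Nppb and Sst, Trpm2 was at 84.1 and 73.4 CPM in Sprr1a- sham neurons and at 3.01 and 4.45 CPM in Sprr1a+ CCI neurons (log2 change -4.35, SE 0.18, adjusted p = 1.7e-30 in edgeR's quasi-likelihood test). The Sprr1a- NP1 neurons of the CCI libraries kept 75.6 and 78.1 CPM, within the range of sham. Trpa1 in NP1 went from 19.5 and 19.0 to 0.716 and 0.953 CPM (-4.44, SE 0.34), and Trpv1 from 155.9 and 146.7 to 76.5 and 74.2 CPM (-0.95, SE 0.11). Trpm3 fell by 1.14 and Trpm4 by 0.60 in NP1, the latter not called by DESeq2 (-0.57), without cells with shared barcodes (-0.53), or without Male-CCI (-0.44) or Male-Sham (-0.47). Trpv2 and Trpc1 had log2 changes of -0.31 and 0.065 and were not called. The Sprr1a+ NP1 cells lay mostly in a cluster led by Cd207 and the Sprr1a- cells in one led by Sst and Nppb.

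In PEP5 neurons, the Trpm8 class, Trpm8 was at 114.5 and 85.9 CPM in Sprr1a- sham neurons and 1.12 and 1.80 CPM in Sprr1a+ CCI neurons, from 8 and 11 UMIs in 149 and 160 cells. The log2 change was -5.81 (SE 0.23, adjusted p = 8.7e-12), whereas the Sprr1a- PEP5 neurons of the same CCI libraries held 128.7 and 127.6 CPM. Trpm2 fell from 24.2 and 23.3 to 3.08 and 2.45 CPM (-2.79, SE 0.20), Trpa1 by 2.22, Trpm4 by 0.82, and Trpm3 by 0.63. The call for Trpa1 was lost without Male-CCI (-1.37) or Female-Sham (-1.65), and that for Trpm3 in DESeq2 (-0.62, adjusted p = 0.056) and without Female-CCI (-0.57) or Male-Sham (-0.43). Trpv1 was at 32.5 and 51.1 CPM in Sprr1a- sham and 49.3 and 60.1 CPM in Sprr1a+ CCI neurons (log2 change 0.66, SE 0.34, adjusted p = 0.22). The Sprr1a+ cells lay mostly in a cluster led by Ankrd1 and the Sprr1a- cells in 3 other PEP5 clusters, so that the comparison is also between clusters. Leaving the TRP genes out of the clustering gave -5.82 for Trpm8 in PEP5 and -4.35 for Trpm2 in NP1.

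In NF1 and NF2 neurons, which have large myelinated fibers, Trpm2 fell as well, from 12.5 and 14.6 to 2.22 and 3.53 CPM in NF1 (log2 change -2.04, SE 0.31) and from 10.6 and 13.5 to 2.43 and 4.13 CPM in NF2 (-1.70, SE 0.29). The Sprr1a- neurons of Male-CCI and Female-CCI held 14.1 and 14.3 CPM of Trpm2 in NF1, near the sham level, but 6.70 and 7.23 CPM in NF2, below both sham libraries (log2 change -0.72, SE 0.24, adjusted p = 0.13, not called). Trpm8 in NF2 had 14 and 20 UMIs in Sprr1a- sham neurons and 0 UMIs in the 80 and 80 Sprr1a+ CCI neurons. Against a floor of 3 UMIs per library, 0.405 and 0.652 CPM, it was at least 4.78-fold lower. In NF2, Trpa1 was called lower with 15 and 16 UMIs in sham against 2 and 0 UMIs (it could not be fitted without cells with shared barcodes), and Trpm3 fell by 1.15 (not called without Male-Sham, -0.93). The 5 higher calls were all in these classes, Trpv1 in NF1 (1.31) and NF2 (0.69), Trpv2 in NF1 (0.52) and NF2 (0.54), and Trpm3 in NF1 (1.35). Trpv1 in NF2 was at 11.7 and 14.8 CPM in Sprr1a+ neurons of Male-CCI and Female-CCI, below the 13.1 and 21.0 CPM of the Sprr1a- neurons of the same libraries (log2 difference -0.17, adjusted p = 0.53). For Trpv2 in NF1 these levels were 42.2 and 40.0 against 46.1 and 38.7 CPM. In the Sprr1a+ neurons of Male-CCI and Female-CCI, Trpm3 in NF1 had 9 and 8 UMIs, Trpv1 38 and 13 in NF1 and 87 and 68 in NF2, and Trpv2 190 and 68 in NF1 and 164 and 107 in NF2. The calls of Trpv1 and Trpv2 were lost without cells with shared barcodes (log2 changes of 0.37 to 0.45), and that of Trpm3 in NF1, which could not be fitted there, was lost with doublets kept (0.39, adjusted p = 0.45). With doublets kept Trpv1 was not called in NF1 (0.14) and turned sign in NF2 (-0.22), where it was 0.090 with the TRP genes left out of the clustering. Each of the 5 was also lost without at least 1 of the libraries. These were Male-Sham (0.71), Male-CCI (1.18), or Female-CCI (1.41) for Trpv1 in NF1 and Male-Sham (0.53) for Trpv1 in NF2. For Trpv2 they were Female-Sham (0.44) or Male-CCI (0.44) in NF1 and Female-Sham (0.46) in NF2, and for Trpm3 Male-Sham (1.23), Female-Sham (1.55), or Female-CCI (0.90). DESeq2 called 1 of the 5, Trpv2 in NF1.

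Within CCI, where 5 classes could be tested, 18 of 34 class tests between Sprr1a+ and Sprr1a- neurons were called, 16 as lower and 2 as higher. Of all gene and class pairs 28.9% were called, 15.2% as lower and 13.7% as higher. These were 2 of 5 members in NF1 (43.8% of all genes), 4 of 7 in NF2 (35.6%), 4 of 7 in NP1 (23.9%), 6 of 8 in PEP5 (43.3%), and 2 of 7 in CCI-ind (3.89%). DESeq2 called 8, 11 were called with any Sprr1a UMI as the limit, and 29 with doublets kept. The 34 tests and the 28.9% are those of the main fit. The shares of all pairs called in the other settings are not given here. Trpv2 was lower in Sprr1a+ PEP5 neurons (-0.58, SE 0.090), but was under the fold limit with any Sprr1a UMI (-0.28), and Trpm8 there differed by -6.14 (SE 0.17). In CCI-ind neurons Trpv1 was at 24.3 and 25.7 CPM in Sprr1a+ cells against 31.1 and 43.5 CPM in 37 and 69 Sprr1a- cells (log2 change -0.53, SE 0.14, adjusted p = 0.015 in edgeR's quasi-likelihood test and 0.41 in DESeq2). Trpm3 was at 5.32 and 6.30 against 12.6 and 8.70 CPM there (-0.78, SE 0.25, adjusted p = 0.049 and 0.65 in the same tests). Both calls were also lost without the library as a block, that of Trpv1 with doublets kept (-0.41), and that of Trpm3 without cells with shared barcodes (-0.77, adjusted p = 0.11).

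CCI-ind neurons hold most Sprr1a+ cells. Their Sprr1a+ cells had 0.887 and 1.27 CPM of Trpa1, 39.6 and 36.2 of Trpv2, 27.2 and 27.8 of Trpc1, and 3 and 1 UMIs of Trpm8. Trpv1 was uneven over the 4 clusters of this class, at 9.38 and 10.2, 36.4 and 31.5, 1.14 and 2.65, and 98.9 and 91.1 CPM in Male-CCI and Female-CCI.

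Sprr1a- neurons were compared between CCI and sham to ask what neurons without the injury marker express. In the fit without a sex block, edgeR's quasi-likelihood test called no member over all Sprr1a- neurons, where it called 4.48% of 16407 genes. Of the members, 4 had an unadjusted p below 0.05, and DESeq2 called 1, Trpa1. With sex as a replicate block, edgeR's quasi-likelihood test called Trpa1 and Trpc5. Trpa1 was at 25.2, 29.4, 44.0, and 64.4 CPM. Both CCI libraries lay above both sham libraries, by a log2 change of 0.97 (SE 0.23) with an adjusted p = 0.077 in edgeR's quasi-likelihood test and 0.0096 in DESeq2. Without cells with shared barcodes the change was 0.94 and was called (adjusted p = 0.023). Without Male-CCI or Female-CCI it was 1.21 and 0.66 and was called, and without Male-Sham or Female-Sham it was 0.85 and 1.09 and was not. In cells thinned to 10000 UMIs, 16.1% (95% CI 14.8 to 17.4), 17.8% (16.7 to 18.8), 21.7% (19.5 to 24.0), and 26.4% (24.4 to 28.6) of Sprr1a- neurons had a Trpa1 UMI, against 36.6%, 35.2%, 43.7%, and 46.5% without thinning. Cells with a Trpa1 UMI held 3.39, 2.92, 5.57, and 5.94 UMIs of it. In SGC, which should lack the gene, 1 cell with a Trpa1 UMI was left in all 4 libraries after thinning to 2000 UMIs, where 4.35%, 5.08%, 8.22%, and 9.63% of Sprr1a- neurons had one.

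Trpm8 (7.04, 6.21, 9.16, and 8.79 CPM, log2 change 0.42, SE 0.079) and Trpm3 (16.3, 14.5, 20.2, and 20.7 CPM, 0.39, SE 0.070) were also higher in both CCI libraries. They passed the adjusted p, with 0.017 and 0.015, but not the fold limit. With neurons that had any Sprr1a UMI left out, both were called, at 1.08 and 0.65. Trpc5 had 26, 30, 20, and 34 UMIs (log2 change 1.07, SE 0.32, adjusted p = 0.060 in edgeR's quasi-likelihood test), and was called with doublets kept (1.17, adjusted p = 0.035) and with no filter on low counts (adjusted p = 0.039). For Trpv1 (129, 147.4, 152.8, and 152.8 CPM) the log2 change was 0.12, for Trpm2 0.10, for Trpm4 -0.035, for Trpv2 -0.054, and for Trpc1 -0.10, and none passed the test.

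**Figure D4:**
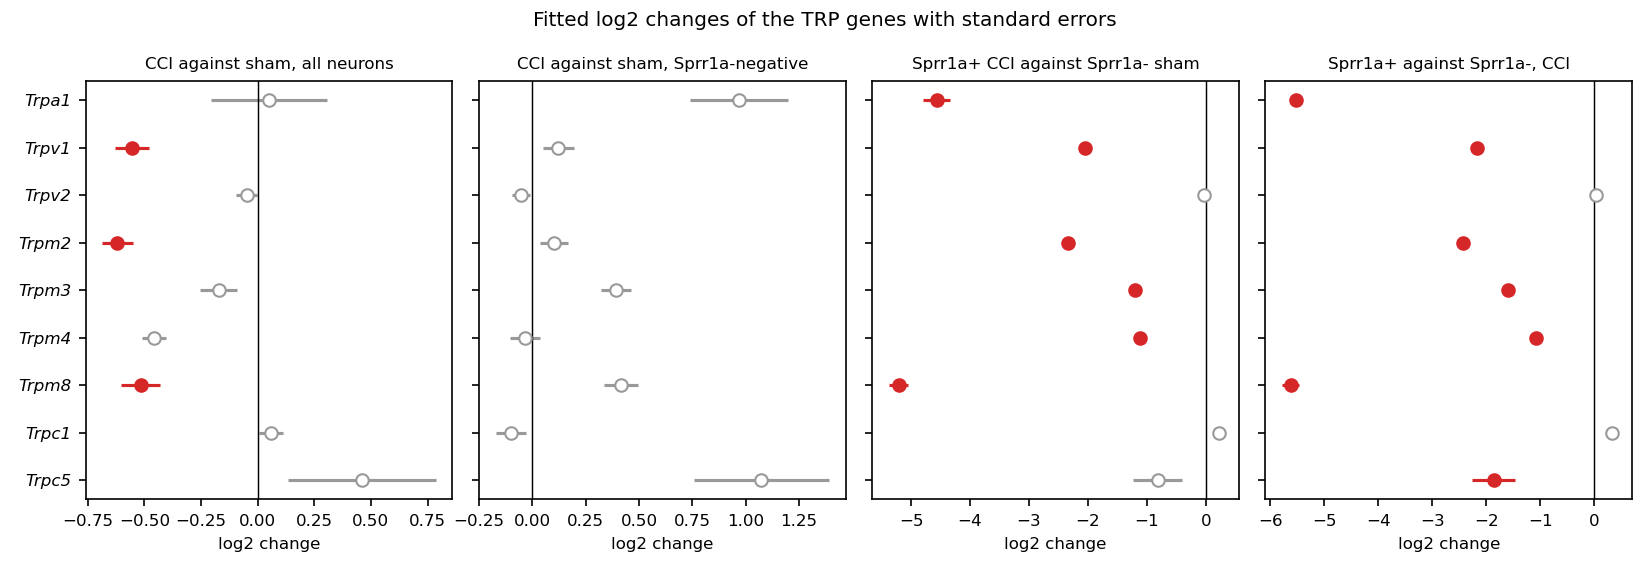
Fitted log2 changes with SE of the 9 TRP genes in 4 comparisons, CCI against sham over all neurons, CCI against sham in Sprr1a- neurons, Sprr1a+ CCI against Sprr1a- sham neurons, and Sprr1a+ against Sprr1a- neurons within CCI, with filled red points for calls. Trpm8 and Trpa1 reach -4.56 to -5.62 in both Sprr1a+ comparisons, and no gene is called in Sprr1a- neurons, where the fit had no sex block.

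By class, 4 of 75 tests of members in Sprr1a- neurons were called, all as higher, where 3.29% of all gene and class pairs tested were called and 1.91% as higher (either direction 4.47% in NP2, 2.67% in NP3, and 5.32% in PEP1, the classes with a call). Trpa1 accounted for 2 of the 4. In NP3 neurons it was at 9.96, 11.3, 22.9, and 26.5 CPM (log2 change 1.16, SE 0.15, adjusted p = 0.00012 in edgeR's quasi-likelihood test), and the call held in all 10 alternatives run. In PEP1 neurons it was at 12.3, 13.7, 30.8, and 52.7 CPM (1.70, SE 0.30, adjusted p = 0.042), with an adjusted p of 0.075 without cells with shared barcodes, 0.051 with doublets kept, 0.29 without Male-Sham, and 0.27 without Female-Sham. Both CCI libraries lay above both sham libraries in each class.

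Trpa1 was also higher in both CCI libraries of 4 further classes in which the test did not call it, with the female library above the male in 3 of them. In PEP2 neurons it was at 10.7, 12.1, 58.0, and 107.5 CPM (log2 change 2.85, SE 0.53, adjusted p = 0.13). It was called there by DESeq2 (adjusted p = 1.7e-07) and without any 1 of the libraries (2.32 to 3.23). In PEP3/4 neurons it was at 31.4, 48.5, 103.5, and 151.6 CPM (1.65, SE 0.41, adjusted p = 0.17, called by DESeq2 with an adjusted p of 0.0022). With sex as a replicate block it was called in PEP3/4. In PEP5 neurons it was at 1.82, 3.30, 5.18, and 14.2 CPM (1.84, SE 0.53, adjusted p = 0.089, called without Male-CCI at 2.38), and in cLTMR at 22.2, 22.2, 27.9, and 25.3 CPM (0.20, SE 0.10, adjusted p = 0.24). PEP2 and PEP5 were taken up after their values were seen. The PEP2, PEP3/4, and PEP5 values were not even over their clusters. In PEP3/4, the cluster with the most Trpa1 had 77.2, 98.5, 204.8, and 289.9 CPM and made up 26.0%, 30.4%, 35.8%, and 35.0% of the class, and in PEP2 one cluster had 21.2, 20.1, 95.8, and 159.6 CPM and the other 0.965, 1.78, 3.36, and 18.3 CPM. In PEP5 the cluster with the most cells had 1.48, 2.08, 7.36, and 19.4 CPM, another 1.65, 7.69, 1.91, and 8.60 CPM, and the one with the most Trpm8 4.51, 1.56, 0, and 0 CPM.

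NP2 neurons, which had the most Trpa1 under sham, were at 66.3, 73.6, 69.8, and 72.5 CPM (log2 change 0.0018, SE 0.077, adjusted p = 0.99). The groups overlapped there. A cluster of 43 and 23 cells in the sham libraries, which had nearly no cells after CCI, held 170.6 and 175.7 CPM, and the main NP2 cluster alone was at 59.3, 70.8, 69.4, and 70.9 CPM. After CCI the PEP3/4 level (103.5 and 151.6 CPM) lay above the NP2 level in both libraries, the reverse of the order under sham. By the share of cells with a Trpa1 UMI, NP2 stayed above PEP3/4 in all 4 libraries. After thinning to 10000 UMIs these were 49.1%, 53.3%, 50%, and 44.8% of NP2 neurons and 14.2%, 20.8%, 29.4%, and 39.7% of PEP3/4 neurons. NP1 (19.5, 19.0, 15.2, and 13.7 CPM) and NF2 (2.56, 3.07, 2.04, and 1.17 CPM) were lower in both CCI libraries and were not called.

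**Figure D5:**
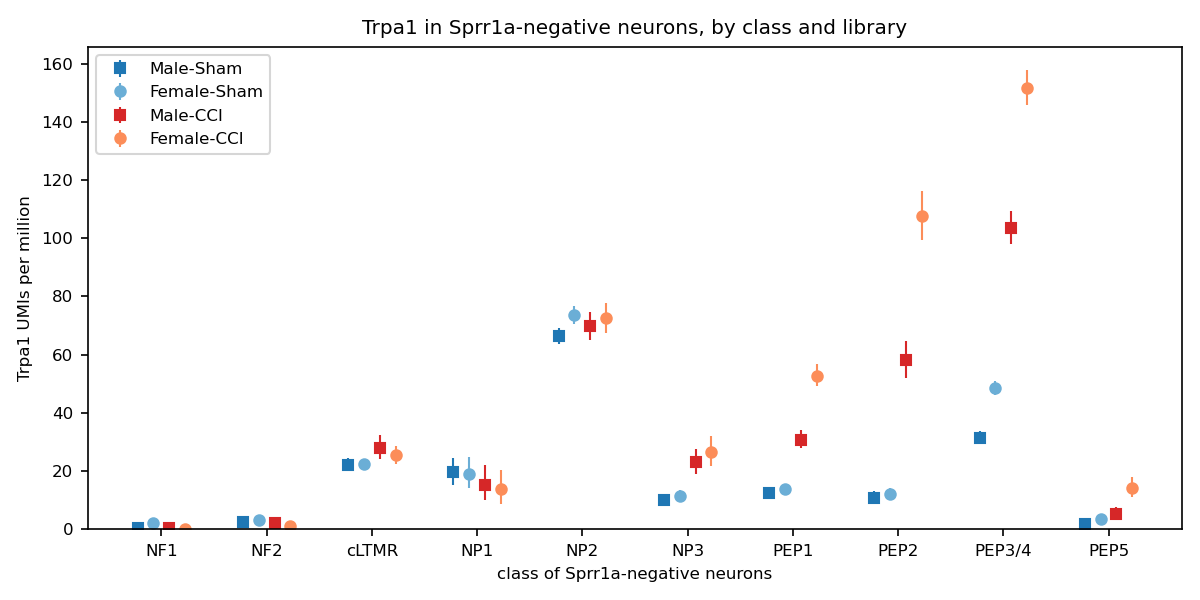
Trpa1 CPM in Sprr1a- neurons of each class and library, with exact 95% Poisson intervals that cover counting error only. The CCI libraries lie above the sham libraries in PEP1, PEP2, PEP3/4, PEP5, NP3, and cLTMR, and among them in NP2, where all 4 libraries are between 66.3 and 73.6 CPM.

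The other 2 calls in Sprr1a- neurons were Trpm3 in NP3 and Trpc5 in NP2. Trpm3 in NP3 neurons was at 7.63, 7.12, 12.8, and 12.0 CPM (log2 change 0.70, SE 0.18, adjusted p = 0.022 in edgeR's quasi-likelihood test), and the call was lost with doublets kept (0.47, adjusted p = 0.10) and without Male-CCI (0.67), Male-Sham (0.75), or Female-Sham (0.65). Trpc5 in NP2 rests on 13, 5, 8, and 13 UMIs (1.62, SE 0.53, adjusted p = 0.046) and was lost without any 1 of the 4 libraries (1.14 to 2.38). Trpm3 in PEP3/4, at 33.2, 27.7, 41.7, and 40.6 CPM, passed the adjusted p (0.0050) with a log2 change of 0.43 under the fold limit, and was called without Male-Sham (0.54). Trpm3 in PEP2 and PEP5 had log2 changes of 0.23 and 0.38 and did not pass, but without Male-Sham the change in PEP5 was 0.58 and was called.

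Trpv1 did not pass the test in the 3 classes in which it was highest. It was at 430.4, 434.1, 416.7, and 406.8 CPM in Sprr1a- PEP2 neurons (log2 change -0.069, SE 0.068), at 263.2, 277.8, 258.3, and 269 CPM in PEP1 (-0.016, SE 0.060), and at 153.2, 172.8, 173, and 199.4 CPM in PEP3/4 (0.18, SE 0.087, adjusted p = 0.21). In 4 further classes, taken up after their values were seen, both CCI libraries lay above both sham libraries without a call. Trpv1 was at 113.9, 114, 136.9, and 161.1 CPM in NP3 (0.34, SE 0.096, adjusted p = 0.038 in edgeR's quasi-likelihood test, under the fold limit). In NP2 neurons, where it was at 5.28, 8.85, 13.6, and 14.9 CPM (0.99, SE 0.27, adjusted p = 0.071), it was called by DESeq2 (adjusted p = 0.0011), without cells with shared barcodes (1.01), and without Male-Sham (0.65) or Female-Sham (1.42), but was 0.21 with doublets kept. In PEP5 neurons it was at 32.5, 51.1, 66.3, and 84.6 CPM (0.80, SE 0.31, adjusted p = 0.27) and was called without Male-Sham (0.52) or Female-Sham (1.21). These levels differed between the PEP5 clusters. Over all cells of a cluster Trpv1 was at 17.3, 27.7, 53.3, and 68.6 CPM in the cluster with the most cells, at 58.3, 82.1, 87.8, and 123.5 CPM in another, and at 83.5, 87.4, 80.7, and 77.4 CPM in the one with the most Trpm8. In NF2 neurons Trpv1 was at 8.54, 10.6, 13.1, and 21.0 CPM (0.91, SE 0.24, adjusted p = 0.065) and was called without Male-CCI (1.21) or Female-Sham (1.07). In NP1 it was lower in both CCI libraries without a call, at 155.9, 146.7, 132.1, and 106.1 CPM (-0.36, SE 0.14, adjusted p = 0.13).

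Trpv2 was at 63.1, 66.4, 86.5, and 85.1 CPM in PEP5 and at 59.3, 53.8, 45.2, and 45.7 CPM in NP2. Sham NP2 also held a cluster of 43 and 23 cells that had 1 and 3 cells in the CCI libraries, and in the main NP2 cluster alone Trpv2 was at 51.6, 50.8, 45.0, and 44.4 CPM. Over the whole classes these were changes of 0.38 (adjusted p = 0.0057) and -0.34 (adjusted p = 0.0031) in opposite directions, both under the fold limit, and in NP1 the change was -0.28 (adjusted p = 0.41). Trpm8 in PEP5, at 114.5, 85.9, 128.7, and 127.6 CPM, had a change of 0.33 (adjusted p = 0.064), which without Male-Sham was 0.53 and was called and without Female-Sham was 0.15. In PEP3/4 and NF2 its changes of -0.54 and 0.42 rested on 9 to 59 UMIs per library. Trpm2 in NP1, PEP5, and PEP3/4 had changes of -0.050, 0.26, and 0.15, Trpm4 in NP3, NP2, and PEP1 of 0.042, -0.050, and 0.030, and Trpc1 in PEP2, NP3, and NP1 of -0.059, -0.25, and 0.072, none past the test.

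The share of Trpa1+ neurons that also had Trpv1 was higher in both CCI libraries, over sets of Trpa1+ cells with unlike mixtures of classes. Among neurons thinned to 10000 UMIs, 176 of 489 Trpa1+ cells of Male-Sham (36.0%, 95% CI 31.7 to 40.4) and 392 of 880 of Female-Sham (44.6%, 41.2 to 47.9) also had a Trpv1 UMI. In Male-CCI and Female-CCI these were 180 of 297 (60.6%, 54.8 to 66.2) and 321 of 475 (67.6%, 63.2 to 71.8). In cells without a Trpa1 UMI the share with Trpv1 was 52.8%, 56.6%, 34.8%, and 36.6%, so that over all neurons it moved the other way. Among Sprr1a- neurons alone it was 53.5%, 58.2%, 54.3%, and 57.2% and did not fall. In the Trpa1+ cells of Sprr1a- neurons the share with Trpv1 was 35.9%, 44.55%, 61.9%, and 69.15%. NP2 neurons, which have much Trpa1 and little Trpv1, made up 210 of 489, 296 of 880, 69 of 297, and 66 of 475 Trpa1+ cells, and their part in the change was not tested. Trpa1 and Trpm8 were found together in 6 of 194, 8 of 278, 1 of 101, and 8 of 117 Trpm8+ cells. Of the SGC, 2.69%, 4.83%, 0%, and 2.75% had a Trpv1 UMI without thinning, at median depths of 5125, 4188, 5160, and 4416 UMIs. Cells of a library are not replicates, and these shares carry no test.

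Of 19 further genes of the TRP family, 14 could be tested over all neurons. Of these, 9 were called, 5 as higher and 4 as lower, where 27.8% of all genes were called, 12.7% as lower. The median log2 change was -0.063 against -0.0061 for all genes. The higher genes were rare under sham. Pkd2l1, a polycystin channel, had 1, 7, 171, and 184 UMIs (log2 change 5.61, SE 0.39), Trpm1 5, 7, 148, and 171 UMIs (4.88, SE 0.26), Mcoln2, an endolysosomal channel, 49, 61, 325, and 315 UMIs (2.72, SE 0.15), and Mcoln3 1, 1, 20, and 14 UMIs. Trpm6 rose by 0.99 (SE 0.30). Among the lower genes, Trpc6 was at 6.39, 4.88, 2.39, and 2.21 CPM (log2 change -1.24, SE 0.14), Trpc7 had a log2 change of -1.03, and Trpc4 one of -0.71. In Sprr1a+ CCI against Sprr1a- sham neurons 11 of 14 were called, 6 as higher and 5 as lower. Of all genes 49.8% were called there, 26.4% as lower. In Sprr1a+ against Sprr1a- neurons within CCI 9 of 13 were called, 4 as higher and 5 as lower. Of all genes 45.6% were called there, 24.7% as lower. In Sprr1a- neurons 1 of 11 was called, as lower (4.48% of all genes).

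Of 35 regulators of TRP channels, receptors, kinases, phospholipases, and binding partners that sensitize them or carry them to the membrane, 34 were tested. Over all neurons 10 were called, a share near the 27.8% of all genes, with a median log2 change of -0.32. Of the 10, 9 were lower, where 12.7% of all genes were called as lower. Plcb3, a phospholipase C downstream of inflammatory receptors, was at 72.4, 60.9, 30.3, and 28.1 CPM (-1.13, SE 0.085), and Ptger1 and Ptger2, prostaglandin E2 receptors, had -0.80 and -0.93. Among the other lower genes were Prkca (-0.72), Akap5 (-0.63), Tmem100 (-0.58), Prkcb (-0.53), and Prkacb (-0.51), and F2rl1, the protease receptor PAR2, was higher (1.73, SE 0.30). In Sprr1a+ CCI against Sprr1a- sham neurons 27 of 34 were called, 20 as lower and 7 as higher. Of all genes 49.8% were called there, 26.4% as lower. Among the 27 were Tmem100 (-3.43), a partner of TRPA1 and TRPV1, Akap5 (-3.21), Pirt (-1.38), and S100a10 (0.94), which helps to bring TRPV channels to the membrane. Cells were sorted on EGFPf driven by the Pirt promoter, which limits what the Pirt value stands for. With any Sprr1a UMI as the limit the count was 15. In Sprr1a- neurons 1 of 34 was called (4.48% of all genes), Ptger2 as lower (-0.51), a call that was lost with DESeq2, without cells with shared barcodes, and with doublets kept.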

How the data were processed

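Libraries were made with 10x 3′ v3 chemistry. The values are deposited UMI counts, which the authors made with Cell Ranger (2.1.0 in the methods, 2.1.1 in the submitters' processing notes, 3.0.2 in the matrix headers) on mm10. Cells with at least 1500 genes and at most 10% mitochondrial UMIs were kept, doublets were removed by Scrublet in the number the study lists, and cells were integrated and clustered in Seurat 5.3.0 (3000 variable genes, 20 principal components, resolution 0.8). Trpa1, Trpv1, Trpm2, and Trpm8 were among the integration genes. A class name needed 3 markers at 10% of cells and 2-fold. Counts were summed per library, class, and Sprr1a status, with at least 10 cells per sum, and tested with edgeR 4.0.16 (quasi-likelihood, TMM, Benjamini-Hochberg over all genes). The comparison within CCI had the library as a block. The script was tested on simulated data.

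All members were named in each comparison over all neurons, and within classes where called or among their 3 highest sham classes. From the other lists, the 3 largest rises and falls were named, and further genes were chosen after their values were seen. Some genes that these rules name are not reported here. The members and lists were chosen with earlier results of these data known. Alternatives were DESeq2 1.42.0, other filters, clusterings, and Sprr1a limits, doublets kept, shared barcodes left out, a sex block, and leaving out each library. Intervals and floors (3 counts) cover counting error only.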

Additional observations from a re-analysis of the deposited data

Results flagged for a closer look

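For several genes the CCI-to-sham ratio of CPM had opposite signs in the male and the female pair of libraries. With 1 library per sex and surgery the difference between the sexes was not tested. Trpa1 over all neurons had a log2 ratio of -0.27 in males and 0.20 in females, and Trpc5, on few UMIs, -0.060 and 0.76. Trpc1 over all neurons had -0.0049 and 0.012. In Sprr1a- neurons Trpm4 had 0.078 and -0.11 over all classes, 0.094 and -0.17 in NP2, and -0.071 and 0.085 in PEP1. Trpa1 in Sprr1a- NP2 neurons had 0.074 and -0.022, Trpm2 in Sprr1a- NP1 neurons -0.15 and 0.091, and Trpc1 in Sprr1a- PEP2 neurons 0.12 and -0.23.

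Trpm3 also had UMIs in SGC, which the comparisons of neurons do not use. Its level there was 17.9 and 11.6 CPM in the male and female sham libraries and 38.7 and 39.5 CPM in the male and female CCI libraries, from 20, 8, 27, and 22 UMIs in 186, 145, 118, and 109 cells.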

How the results depend on the processing

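Over all neurons 3 members were called (2 to 3 with 1 library left out, 2 with doublets kept, and 4 without shared barcodes), in Sprr1a+ CCI against Sprr1a- sham neurons 6 (4 with any Sprr1a UMI), and within CCI 7 (6 with any Sprr1a UMI and 6 with DESeq2). In Sprr1a- neurons the count of 0 became 1 with DESeq2, 1 without shared barcodes, 1 with doublets kept, 1 with no filter on low counts, 2 with any Sprr1a UMI as the limit, and 0 to 1 with 1 library left out. By class, the 4 calls in Sprr1a- neurons became 4 to 7 with 1 library left out, the 20 calls in Sprr1a+ against sham neurons became 13 without shared barcodes, and the 18 within CCI became 8 with DESeq2, 11 with any Sprr1a UMI, and 29 with doublets kept. In Sprr1a- neurons the 1 call among other TRP genes became 2 with any Sprr1a UMI, 3 with doublets kept, 2 with no filter, and 0 to 4 with 1 library left out. The 1 call among regulators became 0 with DESeq2, without shared barcodes, and with doublets kept, and 0 to 1 with 1 library left out, and the 27 in Sprr1a+ neurons became 15 with any Sprr1a UMI. The shares of all genes called in these alternatives are not given here, so the counts cannot be set against them. The cause was not tested.

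The replicate numbers mark sex and do not pair animals. Deviations of same-sex libraries correlated at r = 0.562 over 17065 genes. With sex as a replicate block the calls were 3 over all neurons, 2 members, Trpa1 (0.95, adjusted p = 0.00023 in edgeR's quasi-likelihood test) and Trpc5 (1.07, adjusted p = 0.021), and 2 other TRP genes in Sprr1a- neurons, 12 by class in Sprr1a- neurons, among them Trpa1 in PEP3/4 (1.66, adjusted p = 3.9e-17), and 6 in Sprr1a+ against sham neurons. The shares of all genes, or of gene and class pairs, called with the sex block are not given here. Within CCI the count without the library as a block was 7.

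Signs turned mostly for changes that had not been called, but Trpv1 in NF2 (-0.22 with doublets kept) and Trpc5 within CCI (0.034 with any Sprr1a UMI) had been called. Trpa1 over all neurons was -0.039 without shared barcodes, -0.057 with doublets kept, and -0.31 to 0.34 with 1 library left out. With any Sprr1a UMI, Trpv2 and Trpm4 in Sprr1a- neurons were 0.049 and 0.0042, Trpc5 in Sprr1a+ against sham neurons 0.40, and Trpv2 within CCI -0.099. Trpv2 within CCI was -0.0073 without shared barcodes and -0.0035 with doublets kept. Trpa1 in Sprr1a- NP2 neurons was -0.0010 without shared barcodes, and with doublets kept Trpm4 in PEP1 was -0.014 and Trpc1 in NP1 -0.035. With 1 library left out, Trpm4 in Sprr1a- neurons ranged from -0.13 to 0.049 and Trpv2 in Sprr1a+ against sham neurons from -0.090 to 0.050. In Sprr1a- classes the ranges were -0.083 to 0.089 for Trpa1 in NP2, -0.063 to 0.031 for Trpv1 in PEP1, -0.14 to 0.025 for Trpm2 in NP1, -0.17 to 0.0565 for Trpm4 in NP2, -0.0039 to 0.060 for Trpm4 in PEP1, -0.20 to 0.79 for Trpm8 in NF2, -0.015 to 0.14 for Trpc1 in NP1, and -0.19 to 0.064 for Trpc1 in PEP2. The library left alone in its group is assumed to vary like the others. Few UMIs limit the values of Trpc5 everywhere and of Trpm8 outside PEP5.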

Other observations

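A small NP2 cluster of 43 and 23 cells in Male-Sham and Female-Sham had 170.6 and 175.7 CPM of Trpa1 and 175.7 and 166.6 CPM of Trpv2, against 69.9 and 56.6 CPM in all NP2 neurons.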
